A study of Oryza sativa with 8 samples.

Results

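The genes described here were read in the stem of one rice line and almost not at all in the other. A gene model entered when it had at least 10 fragments in each of the 4 libraries of one line and at most 2 fragments summed over the 4 libraries of the other. Of 55986 gene models counted in both lines, 439 met this rule. They comprised 225 read in SM and not in SM92 (SM-only) and 214 read in SM92 and not in SM (SM92-only). Since 22975 gene models had at least 10 fragments in every SM library, the SM-only set was 0.979% of them, and the SM92-only set was 0.955% of the 22401 read in every SM92 library. These values chose the genes, so the contrast between the lines is described for them and not tested.

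The yellow stem borer is a moth whose larvae bore into rice stems and feed inside. An attack around booting cuts the supply to the panicle, which then dries out and carries empty grains. Rice lines are known to differ both in which genes their genomes hold and in which of those genes are transcribed, and a single reference annotation describes one variety. A gene model with reads in one line may therefore be missing from the other line's genome, present there and silent, or present in a form too different for its reads to align. Fragment counts do not tell these cases apart, and in stem tissue they also do not tell fewer expressing cells from less RNA per cell.

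Per the labels, SM is the susceptible line and SM92 the tolerant one. Plants were grown in a field to booting, larvae were placed on the tillers by hand, and stem pieces from the infested zone were taken 72 hours later, with uninfested plants of each line sampled at the same time. Each line has 4 libraries of total RNA, 2 infested and 2 uninfested per the labels, and no source used here says how SM92 is related to SM. The count columns could be matched to a line and not to a single labelled sample, so infestation is mixed within each line below, and the numbers 1 to 4 only name a line's libraries. Nothing in the labels says that replicates came from separate plants, so a spread between libraries may be technical.

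Libraries held between 50540724 and 57603629 counted fragments. Levels are given as CPM, fragments scaled to a library total of 1000000, on which 3 fragments, the limit that a count of 0 allows, come to between 0.0521 and 0.0594. Libraries of one line differed by more than sampling noise in all pairs. The chi-square per degree of freedom over genes was 1.62 for SM92 libraries 3 and 4, 1.86 for SM92 libraries 1 and 2, and 3.12 for SM libraries 3 and 4. It was 95.7 for SM libraries 1 and 2 and between 254 and 342 for the remaining SM pairs, and between 262 and 267 for the remaining SM92 pairs. Among gene models read in SM, library 2 stood more than 3-fold below the next library at 240 and more than 3-fold above it at 171, counts that were 74 and 13 for library 1. No gene names or functions could be attached, because the identifiers are those of the MSU gene models and 0 of them occurred among the 39387 genes of the RefSeq table used. For the same reason the stem origin of the tissue was not checked against marker genes.

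The one-line gene models carried few reads in total. All 225 SM-only models together had 20812, 20990, 28904 and 27670 fragments in SM libraries 1 to 4, against 39, 47, 58 and 36 in SM92 libraries 1 to 4. The SM92-only models had 26423, 26986, 24081 and 23991 fragments in SM92 libraries 1 to 4, against 48, 32, 44 and 43 in the SM libraries. In the other line, 105 of the SM-only models had no fragment in any library, 60 had 1 and 60 had 2. For the SM92-only models these numbers were 97, 67 and 50.

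**Figure D1:**
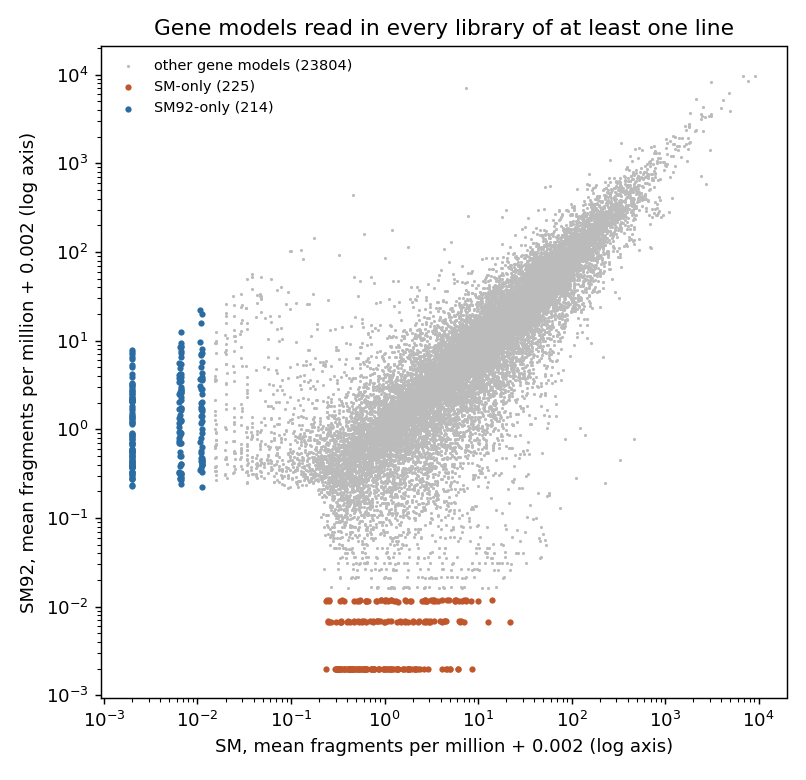
Mean CPM in SM (x axis) and SM92 (y axis) for every gene model with at least 10 fragments in all libraries of at least 1 line, both axes log with 0.002 added. The 225 SM-only models form the bands along the bottom and the 214 SM92-only models the bands at the left, 1 band for each sum of 0, 1 or 2 fragments in the other line, and the grey points run up to the bands without a gap.

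Levels between genes were compared as CPM per kilobase of gene model, where the length includes introns. The median level was 0.560 for the SM-only models and 3.81 for all models read in SM, and it was 0.586 for the SM92-only models against 3.38 for all models read in SM92. A limit of 2 fragments is met more easily by a weakly read gene than by a strong one, so these low levels partly follow from the rule. Of 5088 models with 10000 or more fragments over the 4 SM libraries, 0 met the rule, and of 4325 such models in SM92, 0 did.

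The highest SM-only level per kilobase was that of LOC_Os07g39450, on the plus strand of chromosome 7 at bases 23632873 to 23633411. It had 500, 448, 453 and 441 fragments in SM libraries 1 to 4 and 1, 1, 0 and 0 in SM92 libraries 1 to 4. Its level in SM was 8.37 ± 0.648 CPM (SD, n = 4), and the libraries of SM lay close together. The ratio of SM to SM92 was 866, with a 95% counting interval of 239 to 7155 that covers counting error only. LOC_Os11g10620, on the minus strand of chromosome 11 at 5828343 to 5828674, followed with 178, 125, 195 and 178 fragments in SM and 0, 1, 0 and 0 in SM92.

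LOC_Os08g22300 on chromosome 8, at 13438274 to 13438537, had 72, 222, 160 and 128 fragments in SM and none in SM92, and it was at least 182-fold higher in SM when 3 fragments are taken for the whole SM92 line. LOC_Os07g31210 on chromosome 7, at 18479043 to 18481052, was likewise at 0 in every SM92 library and had 588, 337, 514 and 462 fragments in SM, at least 596-fold higher. Libraries of SM varied 3.01-fold for the first of these and 1.79-fold for the second. LOC_Os09g15639 on chromosome 9 had more fragments than any of these, 703, 768, 650 and 680 in SM against 1, 0, 0 and 0, and a lower level of 5.87 because its model is 2187 bases long.

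The highest SM92-only level was that of LOC_Os10g04270, on the minus strand of chromosome 10 at 1999064 to 1999595. It had 498, 514, 323 and 321 fragments in SM92 libraries 1 to 4 and 2, 0, 0 and 0 in SM libraries 1 to 4. That is 7.96 ± 1.87 CPM in SM92 (SD, n = 4), with libraries 1 and 2 above 3 and 4, and a ratio to SM of 881 with a counting interval of 243 to 7278. LOC_Os09g02814 on chromosome 9, at 1317066 to 1317796, had 381, 416, 347 and 339 fragments in SM92 and 0, 1, 0 and 1 in SM.

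The largest SM92-only totals were those of 2 longer models. LOC_Os11g30210 on chromosome 11, at 17561346 to 17565177, had 1164, 1281, 1074 and 1110 fragments in SM92 and 0, 0, 2 and 0 in SM. LOC_Os04g03884 on chromosome 4, at 1774809 to 1778296, had 1075, 1059, 1047 and 943 in SM92 and 1, 0, 0 and 1 in SM. Their levels per kilobase were 5.75 and 5.80, and in both the SM92 libraries agree within 1.13-fold. The model next to LOC_Os11g30210, LOC_Os11g30200, had 346, 386, 363 and 401 fragments in SM92 and missed the rule by 1 fragment, with 0, 0, 0 and 3 in SM.

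No empty range separated the genes inside the limits from those just outside. Beside the 60 SM-only models with a sum of 2 in SM92 stood 33 with a sum of 3, and beside the 50 SM92-only models with a sum of 2 in SM stood 35 with 3. Just outside on this side was LOC_Os06g29630 on chromosome 6, at 855, 893, 867 and 792 fragments in SM and 1, 0, 0 and 2 in SM92. LOC_Os02g01870 on chromosome 2 was just outside in the other direction, at 656, 659, 354 and 367 fragments in SM92 and 0, 1, 0 and 2 in SM. On the minimum, 11 SM-only models had 10 fragments in their lowest library and 18 further models were left out with 9, against 13 and 17 for SM92-only. LOC_Os03g36490 entered with 15, 10, 107 and 99 fragments in SM, and LOC_Os08g30340 did not with 9, 10, 107 and 95.

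Many more strongly read models differed between the lines as far or further and were not members, because a few reads remained in the low line. Taking a rate in the other line below 1% of the line's own rate, a limit chosen after seeing the data, gave 332 models for SM, of which 192 were SM-only members, and 288 for SM92, of which 181 were SM92-only members. The most strongly read of them was LOC_Os08g35420 on chromosome 8, which had 467625, 477078, 270381 and 264473 fragments in SM92 and 321, 367, 418 and 518 in SM, 0.103% of the SM92 rate. The most strongly read on the SM side, LOC_Os06g38210 on chromosome 6, had 24188, 23183, 28483 and 26217 fragments in SM and 50, 44, 27 and 41 in SM92, 0.169% of the SM rate. In the other direction of this comparison of rules, 33 members of each set were not under 1%, all of them with fewer than 300 fragments in total.

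One-line gene models were shorter than read genes in general and seldom overlapped another model. The median length was 2049 bases for SM-only and 2534 for SM92-only models, against 3369 and 3423 for all models read in SM and SM92. An overlap with another gene model was found for 5 SM-only models (2.22%) and 3 SM92-only models (1.40%), against 5.60% and 5.61% of read models. All 8 of these overlaps were with a model on the opposite strand, and the counting was set to use strand. Plus-strand models numbered 109 of the 225 and 119 of the 214. Over all 55986 gene models, read or not, the median length was 2393 bases and 3.08% overlapped another model. Length and overlap were not compared at equal read level.

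One-line models were most frequent among the read models of chromosome 11, in both directions. That chromosome carried 45 of the 214 SM92-only models, although 5.46% of the models read in SM92 lie there. As a share of read models this was 3.68% on chromosome 11 against 0.955% over the genome. SM-only models on chromosome 11 numbered 28, or 2.25% of the models read in SM there. Rice chromosome 11 is known for its many disease-resistance gene families, and whether these models belong to such families could not be looked up.

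The sets differed on other chromosomes. Chromosome 6 had 30 SM-only models, 1.64% of those read in SM, and 14 SM92-only models, 0.791%. Chromosome 10 had 9 SM-only models, 0.743%, and 18 SM92-only models among 1204 read in SM92. The lowest shares were on chromosome 3 in both directions, 0.594% SM-only and 0.342% SM92-only. No member lay on the unplaced sequences, which held 0 models read in every library of either line.

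**Figure D2:**
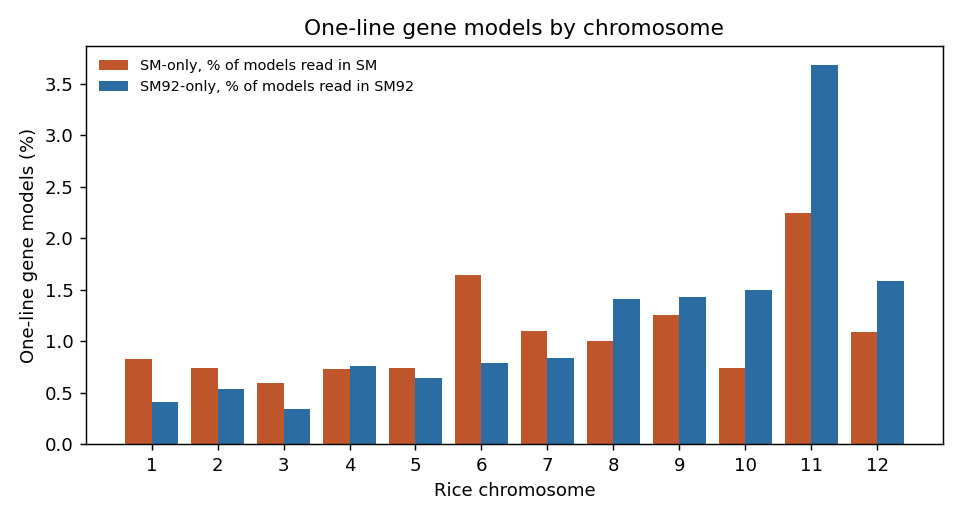
SM-only models as a percentage of the gene models read in every SM library (orange) and SM92-only models as a percentage of those read in every SM92 library (blue), for each of the 12 rice chromosomes. Both bars are tallest on chromosome 11, at 2.25% and 3.68%, and the SM-only bar is next tallest on chromosome 6, at 1.64%.

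Most one-line models stood alone along the chromosome. With no other gene model allowed in between, 189 of the 225 SM-only models were single and 36 (16.0%) lay in 17 runs, 15 of them pairs and 2 of them triplets. Among the SM92-only models 184 of 214 were single and 30 (14.0%) lay in 14 runs, with 12 pairs and 2 triplets. For comparison, 0.620% of the other models read in SM lay directly next to an SM-only model, and 0.469% of the other models read in SM92 lay directly next to an SM92-only model. When up to 2 other models were allowed in between, 48 SM-only models (21.3%) and 50 SM92-only models (23.4%) fell into groups. In windows of 1000000 bases the SM-only models were spread over 145 of 382 windows with at most 5 in one, and the SM92-only models over 128 windows with at most 10.

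The densest stretch was on chromosome 11 between bases 24000001 and 25000000, where 10 of the 43 models read in SM92 were SM92-only. It holds the largest group, with 5 SM92-only models among 9 consecutive gene models at 24031853 to 24082156. LOC_Os11g40390 had 261, 298, 284 and 283 fragments in SM92 and 0, 0, 0 and 1 in SM, and the other 4 had none in any SM library. LOC_Os11g40330 had 141, 133, 99 and 87 in SM92, LOC_Os11g40350 had 120, 132, 82 and 101, and LOC_Os11g40315 had 25, 29, 11 and 13. LOC_Os11g40370 was highest in SM92 libraries 3 and 4, with 106, 84, 560 and 513.

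The models lying between them were also low in SM. LOC_Os11g40320, LOC_Os11g40360 and LOC_Os11g40380 had no fragment in SM and too few in SM92 to qualify, at most 20 in a library. LOC_Os11g40340 was the most strongly read of the stretch, with 2213, 2341, 1070 and 1092 fragments in SM92 and 3, 4, 1 and 2 in SM, and its sum in SM kept it outside. In edgeR's quasi-likelihood test it was higher in SM92 by 9.53 on the log2 scale (adjusted p = 5.41e-06). The first model past the group, LOC_Os11g40400, had 9, 1, 4 and 8 fragments in SM and 70, 87, 49 and 66 in SM92, a log2 difference of 3.83 (edgeR, adjusted p = 0.000988).

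**Figure D3:**
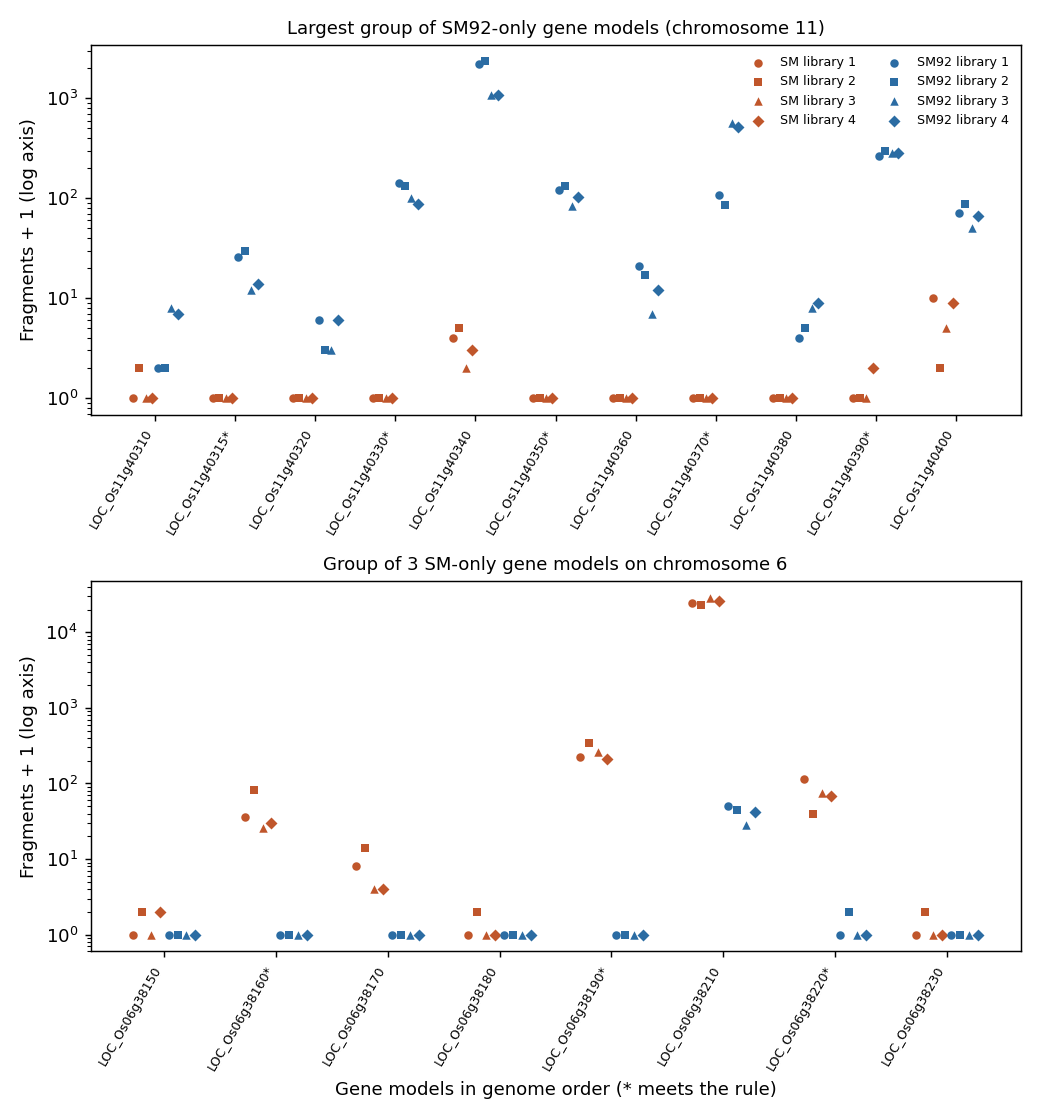
Fragments plus 1 (log axis) in each library for consecutive gene models around the largest SM92-only group on chromosome 11 (top) and an SM-only group on chromosome 6 (bottom), orange for SM and blue for SM92, with members starred. SM points lie at or near 1 across the top group, including LOC_Os11g40340, and in the bottom group LOC_Os06g38210 reaches 28483 fragments in SM against at most 50 in SM92.

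A triplet of SM92-only models with nothing in between lay further along chromosome 11, at 24382955 to 24390444. LOC_Os11g40760 had 150, 157, 205 and 237 fragments in SM92 and 2, 0, 0 and 0 in SM, while LOC_Os11g40770, at 260, 320, 274 and 237, and LOC_Os11g40780, at 116, 117, 158 and 161, had none in SM. The models on either side, LOC_Os11g40750 and LOC_Os11g40790, were at or near 0 in all 8 libraries, so where this difference between the lines ends cannot be read there.

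The second SM92-only triplet was on chromosome 10, at 1897784 to 1915827. It consisted of LOC_Os10g04110, with 102, 105, 109 and 120 fragments in SM92, LOC_Os10g04120, with 157, 167, 134 and 147, and LOC_Os10g04130, with 86, 87, 117 and 133. SM had a single fragment over the 3 models and 4 libraries. The neighbour LOC_Os10g04090 was read in both lines, at 23, 12, 43 and 19 fragments in SM and 150, 159, 198 and 215 in SM92, 3.18 higher on the log2 scale (edgeR, adjusted p = 0.000722). Beyond it LOC_Os10g04074 was again SM92-only, with 124, 128, 83 and 78 fragments. The model beyond that, LOC_Os10g04060, was read in every library of both lines. It too was higher in SM92, by 1.66 on the log2 scale (edgeR, adjusted p = 0.000712).

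The largest SM-only group held 4 models on chromosome 1, at 18555703 to 18587695. LOC_Os01g33740 had 173, 148, 502 and 447 fragments in SM, with libraries 3 and 4 higher, and LOC_Os01g33762 had 210, 220, 154 and 134. LOC_Os01g33710 and LOC_Os01g33720 were near the lower limit, at 26 to 35 and 10 to 25 fragments. All 4 had 2 or fewer in SM92. The model before the group, LOC_Os01g33700, was read in both lines and had a log2 difference of SM92 from SM of -1.10 (edgeR, adjusted p = 0.0149).

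On chromosome 6 the 3 SM-only models at 22598671 to 22621629 surrounded a strongly read gene. LOC_Os06g38190 had 223, 340, 261 and 212 fragments in SM and none in SM92, and LOC_Os06g38160 and LOC_Os06g38220 had 25 to 80 and 39 to 115. LOC_Os06g38210, which lies between LOC_Os06g38190 and LOC_Os06g38220 and whose fragments in every library are given above, had a log2 difference of SM92 from SM of -9.05 (edgeR, adjusted p = 3.10e-07). It stayed outside the rule through the 27 to 50 fragments left in each SM92 library.

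A further SM-only triplet lay on chromosome 6 at 7076782 to 7088528, with LOC_Os06g12940 at 241, 297, 392 and 367 fragments in SM. The next model, LOC_Os06g12960, was read in both lines at like levels, with 249, 141, 61 and 56 fragments in SM and 167, 132, 59 and 48 in SM92. On chromosome 4, LOC_Os04g09620 (76, 82, 114 and 129 fragments in SM), LOC_Os04g09670 (25, 33, 155 and 138) and LOC_Os04g09680 (23, 24, 213 and 184) had 1 fragment in SM92 between them. LOC_Os04g09654, which lies between the first and the second of these, was read in both lines, at 140, 122, 206 and 173 fragments in SM and 338, 319, 230 and 188 in SM92 (log2 difference 0.98, edgeR adjusted p = 0.00923). The model directly before the group, LOC_Os04g09604, had 28, 34, 16 and 27 fragments in SM and 846, 829, 1055 and 1084 in SM92. It was 5.45 higher in SM92 on the log2 scale (edgeR, adjusted p = 1.22e-05).

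Members of opposite direction were directly adjacent once. LOC_Os11g10490 on chromosome 11 was SM-only, at 35, 15, 36 and 31 fragments in SM, and the next model, LOC_Os11g10500, was SM92-only, at 167, 152, 718 and 730 in SM92. With up to 2 models in between there were 5 such mixed groups, 3 of them on chromosome 11. Of the 382 windows of 1000000 bases, 53 held members of both directions.

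The surroundings of one-line models were seldom read in both lines. Both adjoining models had at least 10 fragments in all 8 libraries for 25 SM-only models (11.1%) and 10 SM92-only models (4.67%). Of the other models read in SM and in SM92, 35.0% and 35.2% had such neighbours on both sides. Neither adjoining model was so read for 142 SM-only (63.1%) and 148 SM92-only models (69.2%), against 20.7% and 20.9% of the others. By the rule an adjoining member can never be so read. A member of the same direction adjoined 16.0% of SM-only and 14.0% of SM92-only models, against 0.620% and 0.469% of the others. Part of this contrast therefore follows from the rule.

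Neighbours that are not members were not chosen by their values, so the contrast between the lines was tested on them. In edgeR's quasi-likelihood test of SM92 against SM, 36.4% of the 24892 gene models tested had an adjusted p under 0.05, with 16.7% higher in SM92 and 19.7% higher in SM. Without the members themselves these shares were 35.3%, 16.1% and 19.2%. These tests set 4 libraries against 4 with infested and uninfested plants mixed in each line. They count the 4 libraries of a line as independent. SM92 libraries 1 and 2, SM92 libraries 3 and 4, and SM libraries 3 and 4 were far more alike than other pairs, as given above. How far the adjusted p-values and the shares called hold under such pairing is not known.

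Of the 410 nearest neighbours of SM-only models, 155 had enough reads to be tested and 74 (47.7%) were called. Those higher in SM numbered 52 (33.5%, against 19.2% of non-members), and those higher in SM92 numbered 22 (14.2%, against 16.1%). Of the 387 nearest neighbours of SM92-only models, 116 were tested and 61 (52.6%) called. Here 40 were higher in SM92 (34.5%, against 16.1% of non-members) and 21 were higher in SM (18.1%, against 19.2%). So in both sets the calls beyond the background were in the direction of the member next to them. Models that just missed the rule are among these calls, so the excess is not independent of the rule. How much of it they make up was not tested. A difference over 1 on the log2 scale, called or not, was seen for 62 of the 155 tested neighbours of SM-only models and 63 of the 116 (54.3%) of SM92-only models, against 28.1% of non-members. Without a filter on low counts these shares were 60.2% and 69.5%, against 46.5% of non-members. Read levels were not matched between these sets.

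The share called was highest directly next to the members. Around SM-only models 48.1% of tested models were called at 1 gene model away (95% Wilson interval 40.3% to 55.9%), 46.3% at 2 and 39.2% at 3, and 34.5% at 51 or more. Around SM92-only models 61 of 115 were called at 1 (interval 44.0% to 61.9%), and the shares were 46.1% at 2, 48.2% at 3 and 34.4% at 51 or more. The intervals cover counting error only, and neighbouring genes are not independent. The distance classes were chosen after seeing the data.

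**Figure D4:**
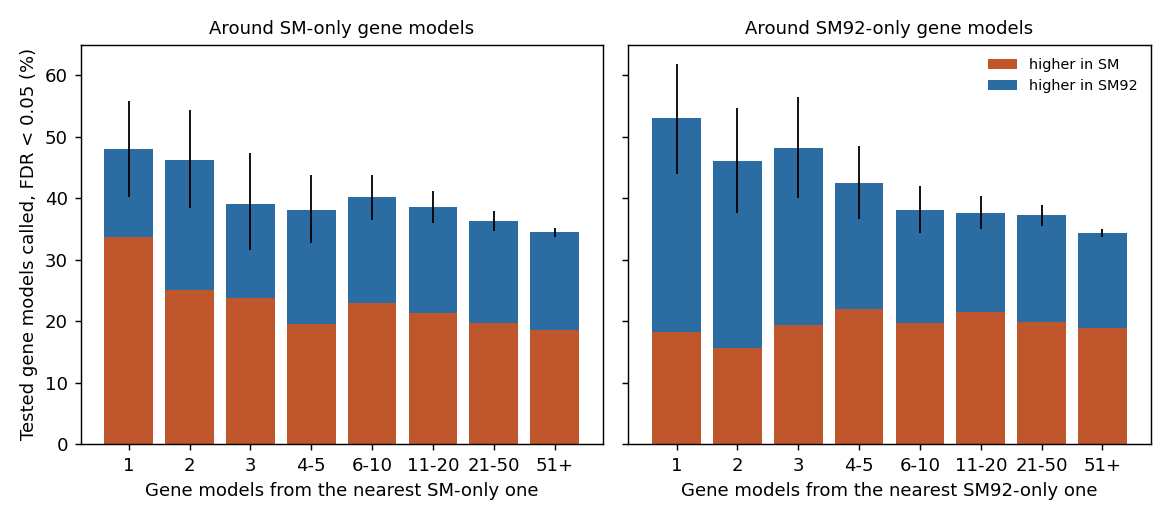
Percentage of tested non-member gene models called between the lines (edgeR, adjusted p under 0.05) by distance in gene models from the nearest SM-only (left) or SM92-only (right) model, stacked as higher in SM (orange) and higher in SM92 (blue), with 95% Wilson intervals for the total. At distance 1 the orange part reaches 33.8% on the left and the blue part 34.8% on the right, and from 51 models on the totals are 34.5% and 34.4%.

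Called models flanking runs went both with and against the difference of the run beside them. LOC_Os12g32400, before an SM92-only pair on chromosome 12, had 914, 1001, 1991 and 2081 fragments in SM92 and 3, 4, 1 and 2 in SM (log2 difference 9.45, edgeR adjusted p = 2.11e-05). LOC_Os01g37210, before an SM-only pair on chromosome 1, had 292, 232, 316 and 283 fragments in SM and 1, 0, 1 and 1 in SM92, 1 fragment too many to be a member. In the opposite direction, LOC_Os07g33730 on chromosome 7 followed an SM92-only pair and was read in SM, at 1348, 891, 1425 and 1319 fragments against 2, 3, 1 and 0 in SM92. Also against their run were LOC_Os11g11890 (log2 difference -2.90) beside an SM92-only pair, and LOC_Os07g35700 (2.90) and LOC_Os02g20650 (3.63) beside SM-only pairs. LOC_Os04g09654, given above, went against its run too. Also with their run were LOC_Os07g31194 (-7.75) and LOC_Os05g04914 (-6.20) beside SM-only pairs and LOC_Os12g38560 (3.55) beside an SM92-only pair. So did LOC_Os01g33700 and LOC_Os10g04090, given above. The examples with fragment numbers were chosen after their values were seen.

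Within the line that carried reads, one-line models varied more between libraries than read models in general. The highest library exceeded the lowest, in CPM, by a median of 1.98-fold for SM-only models against 1.63-fold for all models read in SM, and by 1.63-fold for SM92-only models against 1.45-fold in SM92. Differences over 2-fold were seen in 110 SM-only models (48.9%, against 33.6%) and 64 of 214 SM92-only models (29.9%), against 4922 of the 22401 read in SM92. Weakly read genes vary more through counting alone, and the members are weakly read, so this comparison is not one of genes at equal depth.

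The largest spread was that of LOC_Os09g04960 on chromosome 9, at 2663446 to 2669408, with 28, 33, 2507 and 2367 fragments in SM libraries 1 to 4 and 1, 0, 0 and 0 in SM92. LOC_Os03g14140 on chromosome 3, at 7677616 to 7679130, was alike, with 18, 19, 771 and 863 in SM and 0, 1, 0 and 1 in SM92. In both, libraries 1 and 2 were low and libraries 3 and 4 high, by 83.9-fold and 47.6-fold from lowest to highest. Whether those libraries are the infested or the uninfested ones could not be told.

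Among SM92-only models the spread reached 8.74-fold, in LOC_Os01g06740 on chromosome 1, with 341, 339, 55 and 38 fragments in SM92 libraries 1 to 4. LOC_Os12g38040 on chromosome 12, with 59, 74, 10 and 12, was likewise higher in libraries 1 and 2 than in 3 and 4, and LOC_Os11g40370, named above, was lower in them. At the other end, LOC_Os11g45809 on chromosome 11 had 330, 355, 337 and 323 fragments in SM92, a spread of 1.06-fold, and the SM-only LOC_Os12g01880 on chromosome 12 had 141, 155, 158 and 150 in SM, 1.07-fold. Both were at 0 or 1 fragment in every library of the other line.

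SM library 2 stood apart at LOC_Os10g05820 on chromosome 10, the SM-only model at 2941801 to 2942965 with the fourth highest level. It had 599, 12, 460 and 484 fragments in SM libraries 1 to 4, so that library 2 was at 2.33% of the mean of the other SM libraries in CPM. The same library was low at models nearby that were not members, with 1053, 27, 823 and 830 fragments at LOC_Os10g05860, 344, 15, 285 and 288 at LOC_Os10g05880, and 85, 2, 260 and 294 at LOC_Os10g05910. Models flanking this stretch were not low in library 2. Before it LOC_Os10g05810 had 306, 416, 438 and 371 fragments in SM, and after it LOC_Os10g05940 had 345, 481, 253 and 213.

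Past this stretch the SM92 libraries also fell into very different levels. LOC_Os10g05970 had 16495, 1478, 27231 and 26654 fragments in SM libraries 1 to 4 and 29, 25, 11172 and 11207 in SM92 libraries 1 to 4. In LOC_Os10g05980, LOC_Os10g05990 and LOC_Os10g06000 too, library 2 was the lowest of SM, and libraries 1 and 2 were far below 3 and 4 in SM92. These models were read in both lines and are not members. Among the SM-only models as a whole, 4 had 1 library more than 3-fold below the next, library 1 in 2 of them and library 2 in the other 2. That is 1.78%, near the 1.37% of all models read in SM. Of the SM92-only models 0 did, against 0.0357% of all models read in SM92.

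**Figure D5:**
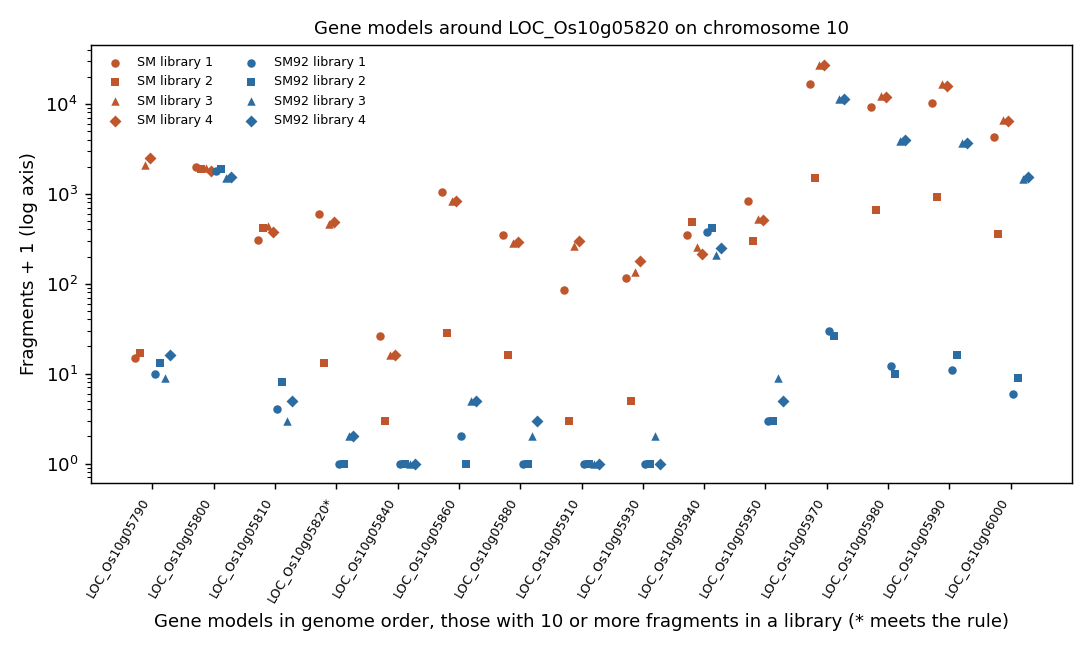
Fragments plus 1 (log axis) in each library for the gene models around LOC_Os10g05820 (starred) on chromosome 10 that had at least 10 fragments in a library, orange for SM and blue for SM92. The square for SM library 2 lies far below the other SM points from LOC_Os10g05820 to LOC_Os10g05930, and level with them at LOC_Os10g05800, LOC_Os10g05810 and LOC_Os10g05940.

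A single library kept some genes out. Counting models that met the rule except for a value under 10 in 1 library of the line with reads, SM libraries 1 to 4 each kept out 30, 17, 13 and 5, and SM92 libraries 1 to 4 each kept out 14, 15, 18 and 7.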

How the data were processed

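Ribosomal RNA was depleted from total RNA of stem tissue before library preparation, per the labels' protocols. The authors deposited 2 tables, 1 for each line, of raw fragment counts per gene model with 4 count columns each, made with featureCounts 2.0.0 on the MSU release 7 annotation, per the file headers. Whole gene models were counted, introns included, for reversely stranded libraries, keeping fragments with both ends aligned and dropping chimeric ones, per the file headers. FastQC, Trim Galore, STAR and DESeq2 are also named, per the submitters' processing notes. No source used here gives the genome build or the aligner's version. Start, end and length of each model were used as deposited, and were identical in both tables.

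The tables were joined on the gene identifier with Python 3.11.15 and pandas 2.3.3. The members, lists and naming rule were chosen with earlier results of these data known. The naming rule took, per direction, the 10 highest levels and the members and neighbours of the 5 longest runs. It also took the 5 models on either side of each limit and the 3 largest and 3 smallest spreads between libraries. Not all models it took are printed above, and counts of named members below include those that are not. Other models named are runs' flanks, mixed groups and the chromosome 10 stretch, chosen after their values were seen. A model with 0 in the other line got a lower bound from 3 fragments over that line's 4 libraries, and others an exact 95% interval for counting error. The contrast of SM92 with SM used edgeR 4.0.16 in R 4.3.3 (TMM, filterByExpr, quasi-likelihood test, Benjamini-Hochberg over all models tested, threshold 0.05) on all 8 libraries. On simulated counts it recovered 7% of 100 models changed by 1 on the log2 scale and 56% of 100 changed by 2. False calls there numbered 4 among 24892 models. A model not called may therefore still differ. No other models were changed in the simulation, whereas 36.4% were called in the data, and its libraries were drawn independently. Recovery and false calls in the data may thus be different. DESeq2 1.42.0 was an alternative. Infestation could not be a covariate, and annotation groups could not be formed.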

Additional observations from a re-analysis of the deposited data

Results flagged for a closer look

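Among the members named, 88 were checked for a library whose gap to its nearest fellow library was a larger part of the line's range than Dixon's 95% critical value for 4 samples allows, and 5 had one. Chance gives about 1 in 20 for independent values from a single normal distribution. Each line mixes infested and uninfested plants, so that rate may not hold here. SM92 library 3 at the SM92-only LOC_Os03g33570 had 7.54 CPM, above the other SM92 libraries. SM92 library 1 at the SM92-only LOC_Os11g40390 had 4.99, below the others. SM library 2 was lowest at LOC_Os11g10620 with 2.27 and at LOC_Os06g02800 with 1.93, and SM library 1 was lowest at LOC_Os05g06399 with 0.186, all 3 SM-only. Over all members, 21 of 225 SM-only models (9.33%) and 9 of 214 SM92-only models (4.21%) had such a library.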

How the results depend on the processing

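The number of members follows the limits set. With a minimum of 5 fragments there were 348 SM-only and 332 SM92-only models, with a minimum of 20 there were 147 and 141, and with no fragment allowed in the other line 105 and 97. A sum of up to 5 gave 321 and 305, scaling to the mean library total gave 158 and 214, and leaving out overlapping models gave 220 and 211. Every SM92 library lay below the mean total, so scaling lifts an SM92 sum of 2 above the limit. The fall to 158 largely follows from this, and SM sums are lowered instead. Leaving out 1 library gave 230 to 265 SM-only and 221 to 261 SM92-only models. With starts at most 50000 bases apart, 28.0% of SM-only and 29.0% of SM92-only models were in runs, and with up to 2 models in between the SM92-only share was 23.4%. Called neighbours rose to 198 and 188 with 3 models on either side, where more models are tested, and without a filter on low counts to 91 and 96. RLE scaling gave 74 and 60, DESeq2 81 and 68, and leaving members out 74 and 60. Leaving out 1 library gave 66 to 81 and 56 to 70, though for most libraries a closely similar one stayed in. In each of these fits the share called exceeded that of non-members in the same fit, for both sets. Of 51 named members, the median level of 8 moved by over 1.5 times without 1 library, all models whose libraries differ widely: LOC_Os09g04960 went from 3.70 CPM per kilobase to between 0.101 and 7.30, LOC_Os03g14140 from 4.53 to between 0.228 and 8.83, and LOC_Os01g06740 from 2.37 to between 0.691 and 4.04. No paired analysis was possible because a column could be tied to its line and not to a labelled replicate, and for the same reason the response to infestation and its alternatives were not run. Members near 10 fragments and sums of 1 or 2 rest on few reads, and at this depth a sum of 0 does not show that a gene is absent.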
